A study of Mus musculus with 6 samples.

Results

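The genes described here encode the proteasome, the protease complex that degrades ubiquitin-tagged proteins. They were chosen as all probe sets that the platform annotation gave to exactly 1 gene with a symbol of Psma, Psmb, Psmc, Psmd, Psme, Psmf or Psmg followed by a digit. The rule took 103 of the 45037 probe sets of the array (control probe sets aside), from 49 of 18193 genes. Of the 49 symbols, Psmc3ip and Psme3ip1 match the letters but name interacting proteins and not subunits, which left 47 genes with 100 probe sets. The 20S core had 34 of these probe sets, the 19S regulatory particle 39, the activators and the inhibitor 14, and the assembly chaperones 13. The activator gene Psme2 had no probe set of its own, since 1417189_at is shared with Psme2b.

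Expression was measured in whole brains of 3 heterozygous periphilin knockout mice, which carry 1 disrupted copy of Pphln1, and of 3 wild-type C57BL/6 littermates. All mice were male and 2 months old, and each brain was hybridised to its own Affymetrix array. Where the disruption lies in Pphln1 and how many litters gave the mice are not given in the sources used here. Periphilin belongs to the HUSH complex, a silencer of retroelements and of some genes, and the comparison addressed how the heterozygous brain differs from that of littermates.

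The proteasome is built from a barrel, the 20S core, in which rings of alpha subunits (Psma genes) form the gate and rings of beta subunits (Psmb genes) hold the catalytic sites. The 19S particle caps the barrel: its ATPases (Psmc genes) unfold substrates, and its non-ATPase subunits (Psmd genes) bind ubiquitin chains and remove them. Activators (Psme genes) open the barrel without ubiquitin, and interferon exchanges 3 catalytic beta subunits for Psmb8, Psmb9 and Psmb10 to form the immunoproteasome. When proteasome activity falls, the transcription factor Nfe2l1 raises the subunit genes together, and in neurons the complex is known for its part in synaptic remodelling and protein quality control.

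The authors' deposited values are linear intensities, 1 for each probe set on each array, and were analysed as log2(value + 16), and a log2 difference is heterozygous minus wild type on that scale. Averaged over the central 96% of its values, every array came to 150.0, and log2 values of any pair of arrays correlated at 0.978 to 0.984. Probe sets were left out as dim where the mean of log2(value + 16), converted back to a signal, was at or below 18.4. This left 27022 tested in the whole table. A signal depends on the probes, so levels of different probe sets are not compared, and probe sets of 1 gene are set side by side only by how they differ between genotypes. At Pphln1, 1434822_at measured 352.8, 269.2 and 337.5 in heterozygous brains, against 294.9, 290.2 and 314.0 in wild-type brains, and the dimmer 1435766_at measured 30.6, 44.4 and 36.6 in heterozygous brains, against 63.2, 47.3 and 46.3 in wild-type brains. The groups overlapped at 1434822_at and did not at 1435766_at, and whether either lies in the disrupted part cannot be told. Summed neuron markers ranged from 21513 to 25538 in heterozygous and from 22057 to 22221 in wild-type brains, and summed pituitary markers from 144.5 to 6556 and from 741.9 to 20253. All 5 neuron marker genes were higher in sign (median 0.08), against 52.0% of all genes tested, and all 3 pituitary marker genes were lower. None of these was called. Of the astrocyte markers, 2 genes were higher and 3 lower in sign, and none was called. An unadjusted limma p below 0.05 was found for 2 of their 17 probe sets (11.8%), against 4.83% of the table. Both were lower, Gfap 1426509_s_at at -0.38 (SE 0.14) and Slc1a3 1452031_at at -0.27 (SE 0.12). The other tested Gfap probe sets lay at -0.40 and -0.15, and those of Slc1a3 at 0.08, -0.0013, -0.08 and -0.14. At their brightest probe sets, Aldoc lay at 0.16, Aqp4 at 0.05 and Slc1a2 at -0.04. Summed astrocyte markers ranged from 13810 to 16442.5 in heterozygous and from 14313.3 to 14792.5 in wild-type brains. In whole tissue, fewer cells of a type and less RNA per cell cannot be told apart.

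The motif best known from proteasome promoters is the antioxidant response element core, TGACNNNGC, which Nfe2l1 and Nfe2l2 bind, and it is shown here where it lies before the start of a measured gene. The stretches are from RefSeq promoters of build GRCm38.p6, running from 250 bases before to 50 bases after each gene's start, 5′ to 3′ along the gene, with the motif or its reverse complement in capitals. Such a promoter was held for 39 of the 47 genes.
Psmb5, a catalytic core subunit, chr14:54618018-54618058, minus strand: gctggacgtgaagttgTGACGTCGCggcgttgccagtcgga
Psmb6, a catalytic core subunit, chr11:70525332-70525356, plus strand: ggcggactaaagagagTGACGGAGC
Psmc6, a 19S ATPase, chr14:45329581-45329621, plus strand: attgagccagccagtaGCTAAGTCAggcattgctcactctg
Psmd12, a 19S non-ATPase subunit, chr11:107479278-107479305, plus strand: tctGCTGTGTCAcatttgcccccctcag
Psmd9, a 19S assembly chaperone, chr5:123228143-123228183, plus strand: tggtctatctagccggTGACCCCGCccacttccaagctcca

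The letters TGACNNNGC, read on both strands, were found in 6 of the 39 proteasome promoters (15.4%) and in 13.99% of the 27025 promoters of all genes. The match of the sixth gene, Psme4, runs across the start and is not printed. CCAAT, the box bound by NF-Y, was in 14 of 39 (35.9%) against 41.1% of all promoters. By role, it was in 8 of the 15 core promoters (53.3%), 4 of 14 of the 19S particle (28.6%), 1 of 4 of the activators and inhibitor (25%) and 1 of 6 of the assembly chaperones (16.7%). The STAT site letters TTCNNNGAA were in 3 of 39 (Psmb8, Psmd2 and Psmg1; 7.69%) against 9.55%. The interferon-stimulated response element, read as GAAA, any 2 bases and GAAA again, was in 5 of 39 (Psmb3, Psmd4, Psmd9, Psme1 and Psmg4; 12.8%) against 3.99%. Motifs were counted separately and may share bases, and a match describes the letters, not a bound site. The 5 genes printed above had log2 differences of 0.10 (Psmb5), 0.0082 (Psmb6), -0.07 (Psmc6), 0.04 (Psmd12) and -0.07 (Psmd9) at their brightest probe sets, with SEs of 0.08 to 0.13.

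No proteasome probe set passed the test between genotypes. Of the 100 probe sets, 77 were tested and 23 were dim; at least 1 was tested for 45 of the 47 genes. Psma8, a testis alpha subunit, and Psmb11, a thymus beta subunit, were dim, with signals of 7.59 to 16.2 and of 3.97 to 8.20 in heterozygous brains and of 9.10 to 16.1 and of 2.42 to 4.90 in wild-type brains. None of the 77 had a limma adjusted p below 0.05 (lowest 0.746), where 4 of the 27022 tested probe sets of the table were called (0.0148%). An unadjusted limma p below 0.05 was found for 4 of the 77 (5.19%), against 4.83% of the table. Higher was Psmb2, against 2.43% of the table in that direction, and lower were 1 probe set each of Psmb1, Psme3 and Psme4, against 2.4%. The genotypes did not overlap at 7 of the 77 (9.09%), 2 higher and 5 lower, against 10.2% of the table. These shares lie near those of the table.

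The brightest tested probe set was taken for each gene. The 45 genes then ranged from -0.35 (Psmb9) to 0.29 (Psmb2) on the log2 scale. Of these, 31 were higher in sign and 14 lower, with a median of 0.04, against 52.0% higher and a median of 0.0068 among all 13024 genes tested. The sign count turned on the scaling and on single arrays: it was 23 of 45 with median centring, which gave 41.9% of all genes a positive sign, and 21 of 45 without wild type 1. The median size of the difference was 0.06 for proteasome genes and 0.09 for all genes. The 95% confidence interval lay within a change of 1.25-fold for 31 of the 45 genes (68.9%, against 31.1% of all genes). It lay within 1.5-fold for 43 of 45 (95.6%, against 82.9%), the exceptions being Psmb8 and Psmb9, and within 2-fold for all 45 (against 98.4%). The genes compared were not matched for signal, and differences of all tested probe sets were smaller at higher signal. Their central 95% spanned -0.44 to 0.54 in the dimmest bin of signal and -0.14 to 0.21 in the brightest. Whether proteasome genes differ from other genes of like signal was not tested.

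**Figure D1:**
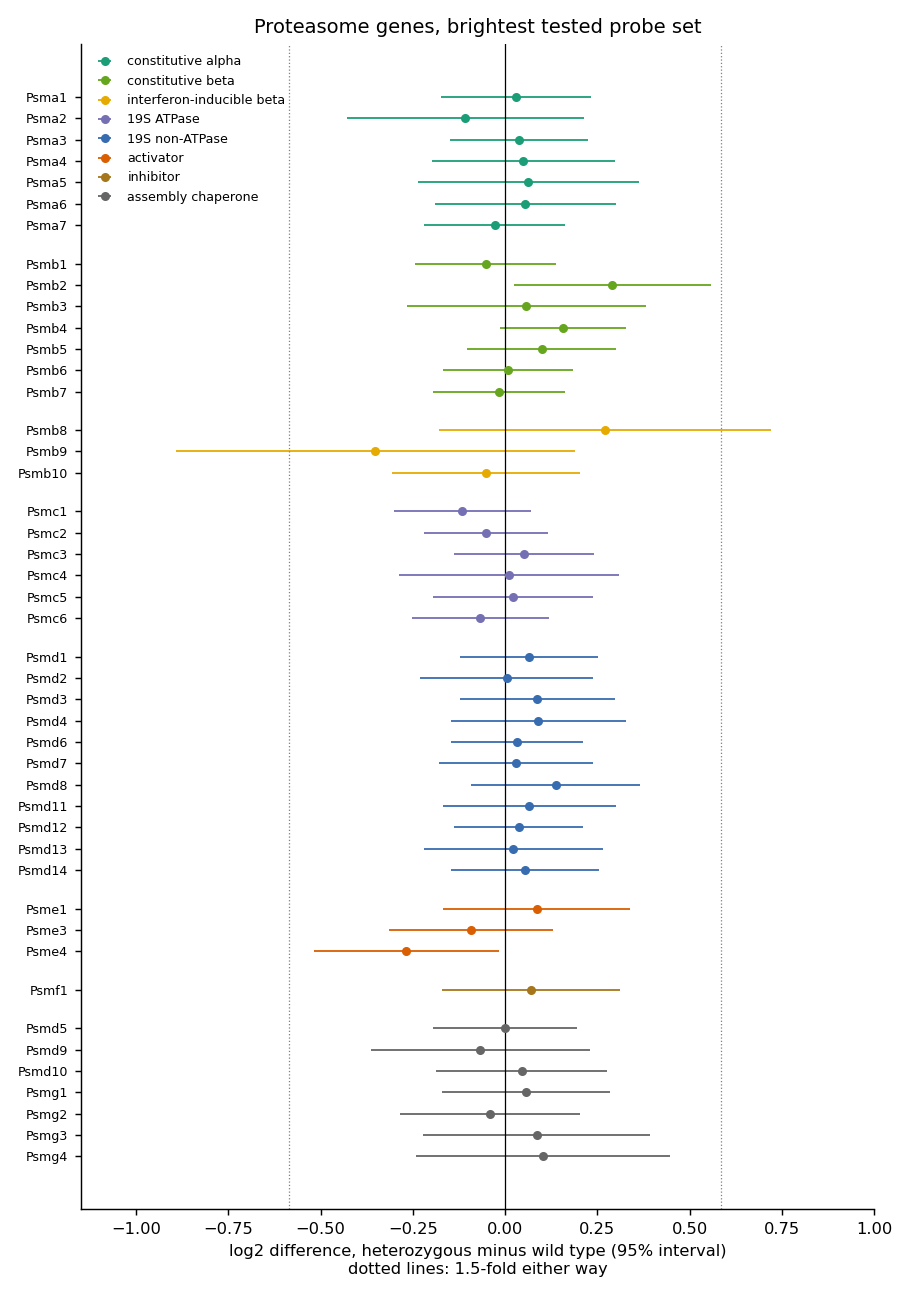
Log2 difference, heterozygous minus wild type, of each of the 45 tested proteasome genes at its brightest probe set, with the 95% confidence interval from limma, grouped by role. Points lie between -0.35 (Psmb9) and 0.29 (Psmb2), and only the intervals of Psmb8 and Psmb9 reach beyond a change of 1.5-fold.

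Averaged over genes after centring each gene, the 17 tested core genes stood at 0.0078, 0.04 and -0.0047 in the heterozygous brains, against -0.11, 0.08 and -0.02 in the wild-type brains. The 17 genes of the 19S particle stood at 0.04, 0.0025 and 0.0010 in heterozygous brains, against -0.05, 0.0033 and 0.0039 in wild-type brains. For both particles the lowest array was wild type 1. The 7 assembly chaperones stood at 0.07, 0.05 and -0.08 against -0.04, 0.03 and -0.02, and the 4 activator and inhibitor genes at -0.07, -0.02 and 0.01 against -0.04, 0.05 and 0.07. The genotypes overlapped in each of the 4 groups.

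**Figure D2:**
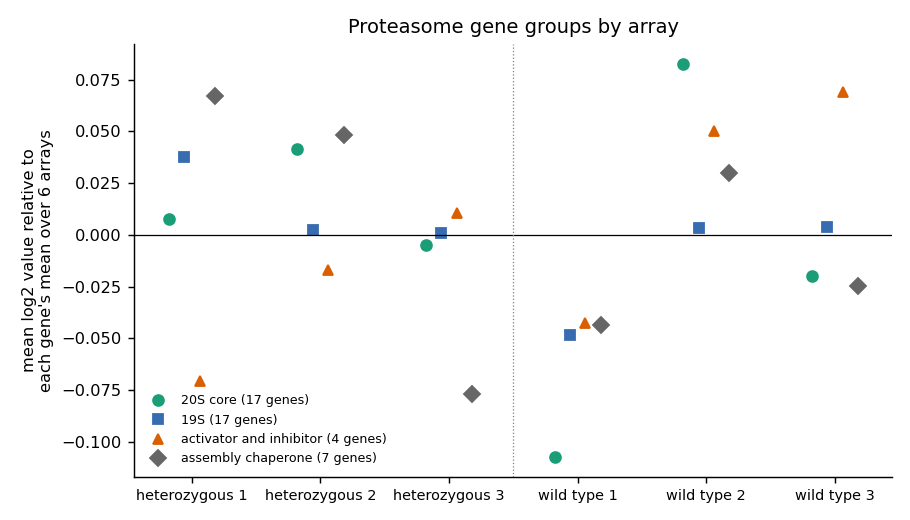
Mean log2 deviation from the gene mean on each of the 6 arrays for the core, the 19S particle, the activators with the inhibitor, and the assembly chaperones, with heterozygous brains left of wild-type brains. The lowest value of the core genes, -0.11, is that of wild type 1, and the genotypes overlap in every group.

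The 7 constitutive alpha subunit genes, whose products form the outer rings and the gate, lay close to 0, 5 higher in sign and 2 lower (median 0.04). Psma5 was highest, with 1066, 1305 and 1517 in heterozygous brains, against 1061, 1423 and 1227 in wild-type brains at 1434356_a_at. Its log2 difference was 0.06 (SE 0.14). Psma2 was lowest, with 1636, 1419 and 1736 in heterozygous brains, against 1463, 1540 and 2240 in wild-type brains at 1448206_at, a log2 difference of -0.11 (SE 0.15). The genotypes overlapped at both, and the highest Psma2 signal was that of wild type 3 alone. Psma3 had 1 bright and 1 weak probe set, which parted. At 1448442_a_at it measured 2088, 2056 and 2144 in heterozygous and 1895, 2236 and 2006 in wild-type brains (log2 difference 0.04, SE 0.08), and at 1441707_at 40.4, 39.7 and 36.7 against 63.7, 51.6 and 43.7 (-0.32, SE 0.17, limma adjusted p = 0.956). Only at the weaker one were all heterozygous brains below all wild-type brains, with an exact permutation p of 0.1, and no lower p is possible with 3 brains per genotype. Psma6 lay at 0.05 by 1437144_x_at, at 0.07 by 1416506_at and at -0.25 (SE 0.23) by the weak 1435317_x_at.

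The 7 constitutive beta subunit genes, which include the 3 proteolytic subunits Psmb5, Psmb6 and Psmb7, had a median of 0.06, 5 higher in sign and 2 lower. Psmb2, a non-catalytic beta subunit, was highest. At 1448262_at it measured 663.8, 733.7 and 578.4 in heterozygous brains, against 460.0, 616.7 and 534.4 in wild-type brains. The mean was 658.6 ± 77.8 in heterozygous and 537.0 ± 78.4 in wild-type brains (SD, n = 3 each), and heterozygous 3 lay below wild type 2. The log2 difference was 0.29 (SE 0.12, 95% confidence interval 0.02 to 0.56; limma p = 0.036, adjusted p = 0.956; exact permutation p = 0.2). Its unadjusted limma p was 0.19 without wild type 1, the lowest array, and 0.080 with median centring. Psmb4, another non-catalytic subunit, is described after its values were seen. At 1451205_at it measured 2563, 2473 and 2439 in heterozygous and 2151, 2356 and 2196 in wild-type brains (0.16, SE 0.08, limma adjusted p = 0.956). Its groups did not overlap there, whereas 1438984_x_at lay at -0.11 (SE 0.11).

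Psmb1, a non-catalytic beta subunit on chromosome 17, had the lowest log2 difference of the proteasome probe sets, and it had it at 1 of its 3 probe sets. At 1420052_x_at the signal was 33.2, 19.1 and 40.7 in heterozygous brains, against 74.6, 69.7 and 74.4 in wild-type brains. The mean was 31.0 ± 10.96 in heterozygous and 72.9 ± 2.76 in wild-type brains (SD, n = 3 each). Every heterozygous brain lay below every wild-type brain, and the wild-type brains lay within a few units of each other. The log2 difference was -0.95 (SE 0.19, 95% confidence interval -1.37 to -0.53; limma p = 0.000442, adjusted p = 0.746; exact permutation p = 0.1). The adjusted p missed the threshold. The size hung on the pseudocount, at -1.27 with 1 and -0.53 with 64.

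At the brightest Psmb1 probe set, 1448166_a_at, heterozygous brains measured 1276, 1210 and 1127, against 1266, 1162 and 1322 in wild-type brains. The means were 1204 ± 74.5 in heterozygous and 1249.8 ± 81.3 in wild-type brains, and the groups overlapped. The log2 difference of -0.05 (SE 0.09) ran from -0.24 to 0.14 in its 95% confidence interval (limma adjusted p = 0.974). The third probe set, 1420053_at, measured 35.2, 43.4 and 43.9 in heterozygous and 49.4, 69.4 and 34.2 in wild-type brains. The genotypes overlapped there (log2 difference -0.21, SE 0.20, 95% confidence interval -0.66 to 0.24, limma adjusted p = 0.961).

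Taken within each array, 1420052_x_at minus 1448166_a_at differed between genotypes by -0.89 on the log2 scale, without overlap (exact permutation p = 0.1, adjusted p = 0.457 over 32 pairs of probe sets of the same gene). The difference between these probe sets was -1.22 with a pseudocount of 1, -0.48 with 64, and between -1.09 and -0.69 with single arrays left out. Against the other weak probe set, 1420052_x_at minus 1420053_at differed between genotypes by -0.74 (exact permutation p = 0.1). In Affymetrix naming, the suffix _x_at marks a set with probes that may also match other transcripts. Of the neighbouring genes on chromosome 17, Tbp lay at -0.05 (SE 0.12) and Pdcd2 at 0.02 (SE 0.15) on one side. On the other side, the 3 tested probe sets of Fam120b lay at 0.16 (SE 0.10), -0.19 (SE 0.14) and -0.24 (SE 0.17), and Dll1 at -0.04 (SE 0.15).

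**Figure D3:**
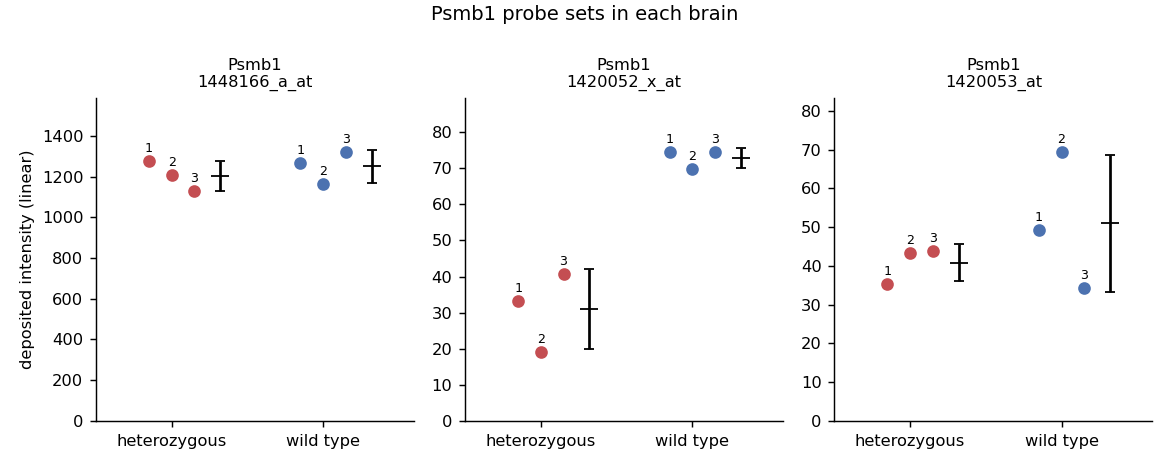
Deposited intensity (linear axis from 0, a panel for each probe set) of Psmb1 in each brain, with the mean and SD beside the points and heterozygous brains left of wild-type brains. The genotypes are apart at 1420052_x_at (19.1 to 40.7 in heterozygous, 69.7 to 74.6 in wild-type brains) and overlap at 1420053_at and at 1448166_a_at.

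Psmb1 was 1 of 21 proteasome genes with at least 2 tested probe sets. Among the 32 pairs formed with each gene's brightest probe set, the within-array difference did not overlap between genotypes for 7 (21.9%), from Psma3, Psmb1, Psmc2, Psmd9, Psme3 and Psme4 (2 pairs). Over the 10449 such pairs of all genes in the table the share was 10.3%. Pairs of a gene share its brightest probe set, and the difference between the shares was not tested. Each of the 7 had an exact permutation p of 0.1 and an adjusted p of 0.457. The log2 differences of a gene's probe sets lay over 0.3 apart for 7 genes, Psma3, Psma6, Psmb1, Psmd4, Psmd7, Psmd9 and Psme4. Signal went with spread: the 13 tested probe sets with a mean signal below 100 had a median SE of 0.20 and log2 differences from -0.95 to 0.27, and the 64 at or above 100 a median SE of 0.11 and differences from -0.35 to 0.29.

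**Figure D4:**
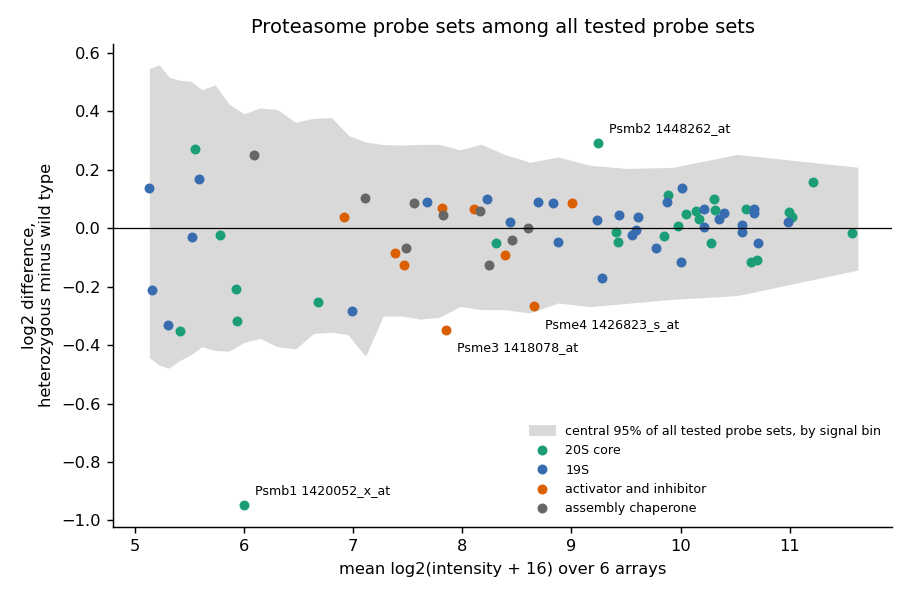
Log2 difference, heterozygous minus wild type, against mean log2 signal for the 77 tested proteasome probe sets, over a grey band that spans the central 95% of all 27022 tested probe sets at each signal. The point of Psmb1 1420052_x_at lies at -0.95 near the dim end, and probe sets with a mean signal of 100 or more lie between -0.35 and 0.29.

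The immunoproteasome beta subunits showed no common direction. Psmb8, which replaces Psmb5, measured 50.2, 25.6 and 33.2 in heterozygous and 28.6, 29.0 and 22.5 in wild-type brains at 1422962_a_at (log2 difference 0.27, SE 0.20). Psmb9, which replaces Psmb6, measured 10.35, 35.4 and 23.9 in heterozygous brains, against 31.3, 39.1 and 27.2 in wild-type brains at 1450696_at (-0.35, SE 0.25). Both were weak, and their genotypes overlapped: the highest Psmb8 and the lowest Psmb9 signal were those of heterozygous 1. Psmb10, which replaces Psmb7, was brighter, with 313.2, 292.7 and 280.2 in heterozygous brains, against 265.3, 356.0 and 304.7 in wild-type brains at 1448632_at (-0.05, SE 0.12). The limma adjusted p of these 3 genes was between 0.956 and 0.978. Among 13 tested genes of interferon response and antigen presentation, 4 were higher and 9 lower in sign (median -0.06). Of all genes tested, 52.0% were higher. None of the 21 interferon and antigen presentation probe sets was called. Of these, 3 (14.3%) had an unadjusted limma p below 0.05, against 4.83% of the table. All 3 were lower, at Gbp2 (-0.41), Bst2 (-0.52) and H2-D1 1451683_x_at (-0.35). Gbp2 and Bst2 were weak, and Bst2 measured 8.05, 20.1 and 21.8 in heterozygous and 35.3, 25.8 and 29.2 in wild-type brains. The other tested H2-D1 probe sets lay at 0.13, 0.15 and 0.16, opposite in sign. Of the genes higher in sign, Irgm1 lay at 0.25 (SE 0.20), Irf1 at 0.24 (SE 0.14) and Irf9 at 0.10 (SE 0.14). The genotypes did not overlap at Gbp2, Bst2 and H2-D1 1451683_x_at, nor at Irf1 and Irf9. Over the 13 genes, each at its brightest probe set, the summed signal was 2863 to 3826 in heterozygous and 3072 to 3854 in wild-type brains. The 9 microglia markers summed to 2194 to 2453 in heterozygous and 2221 to 2581 in wild-type brains. Of the genes listed as lymphocyte markers, Cd3d, Cd3e and Cd79a were dim. Only Ptprc was tested, which is not particular to lymphocytes, so its signal does not report them. At 1422124_a_at Ptprc measured 45.8, 41.9 and 31.8 in heterozygous and 49.8, 51.2 and 56.6 in wild-type brains. The groups did not overlap (log2 difference -0.30, SE 0.16, limma adjusted p = 0.956, exact permutation p = 0.1).

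In the 19S particle, the 6 ATPase genes split evenly, 3 higher and 3 lower in sign (median -0.02). Psmc3 was highest, with 1370, 1347 and 1363 in heterozygous and 1188, 1423 and 1336 in wild-type brains at 1416282_at (log2 difference 0.05, SE 0.09). Psmc1 was lowest, with 895.8, 997.2 and 1023 in heterozygous brains, against 1030, 1101 and 1030 in wild-type brains at 1416005_at. Each heterozygous brain lay below each wild-type brain, but the difference of -0.12 (SE 0.08) had a limma adjusted p of 0.956 and an exact permutation p of 0.1. Psmc6, singled out after its values were seen, was lower in sign at each of its 3 probe sets, at -0.28 (SE 0.14), -0.17 (SE 0.11) and -0.07 (SE 0.08). At the weakest, 1417769_at, the groups did not overlap.

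All 11 non-ATPase genes of the 19S particle were higher in sign (median 0.05), and none had an unadjusted limma p below 0.05. With median centring 7 of the 11 were higher, without wild type 1 also 7, and without heterozygous 3 there were 8. Psmd8, a lid subunit, was highest, with 1044, 1212 and 954.2 in heterozygous and 912.2, 1065 and 930.6 in wild-type brains at 1423296_at (0.14, SE 0.10). Psmd2, a large scaffold subunit of the base, was lowest, with 1238, 1109 and 1185 in heterozygous and 1139, 1032 and 1370 in wild-type brains at 1415831_at (0.0047, SE 0.11). The genotypes overlapped at both. Psmd4, a ubiquitin receptor, lay at 0.09 (SE 0.11) and -0.0060 (SE 0.08) by its bright probe sets and at -0.21 (SE 0.26) by the weak 1451725_a_at. Psmd7, a lid subunit that pairs with the deubiquitinase Psmd14, had log2 differences of 0.03 (SE 0.10) at 1451056_at and of -0.33 (SE 0.22) at the weak 1432820_at.

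Psmd6, a lid subunit on chromosome 14, varied between brains at 1 probe set in a way that did not follow genotype. At 1423696_a_at it measured 726.3, 880.6 and 99.96 in heterozygous brains, against 66.3, 941.4 and 799.6 in wild-type brains. Heterozygous 3 and wild type 1 were low, and the other 4 brains were high. The log2 difference was 0.09 with an SE of 0.90 (95% confidence interval -1.89 to 2.06, limma adjusted p = 0.995). At 1423697_at the same brains measured 1353, 1226 and 1346 in heterozygous and 1246, 1341 and 1248 in wild-type brains (0.03, SE 0.08), with no such split. Psmd6 is described after its values were seen.

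The activators gave 2 of the 4 probe sets with an unadjusted p below 0.05. Psme3, the nuclear activator that stimulates degradation without ubiquitin, measured 190.3, 179.7 and 195.8 in heterozygous brains, against 254.6, 214.1 and 267.1 in wild-type brains at 1418078_at. The means were 188.6 ± 8.17 in heterozygous and 245.3 ± 27.7 in wild-type brains (SD, n = 3 each), and the groups did not overlap. The log2 difference was -0.35 (SE 0.11, 95% confidence interval -0.59 to -0.10; limma p = 0.00987, adjusted p = 0.956; exact permutation p = 0.1). The brighter Psme3 probe set, 1418079_at, measured 318.1, 287.6 and 320.6 in heterozygous and 299.0, 338.7 and 354.5 in wild-type brains. Its groups overlapped, and its log2 difference of -0.09 (SE 0.10) had a limma adjusted p of 0.962. The difference between the 2 probe sets within an array was -0.26 (exact permutation p = 0.1, adjusted p = 0.457).

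Psme4, an activator known for histone degradation, measured 322.8, 329.8 and 408.8 in heterozygous brains, against 469.1, 389.3 and 425.6 in wild-type brains at 1426823_s_at. Heterozygous 3 lay within the wild-type range. The means were 353.8 ± 47.8 in heterozygous and 428.0 ± 39.99 in wild-type brains (SD, n = 3 each), a log2 difference of -0.27 (SE 0.11, 95% confidence interval -0.52 to -0.02; limma p = 0.039, adjusted p = 0.956; exact permutation p = 0.2). Its other tested probe sets had log2 differences of -0.09 (SE 0.13) at 1426824_at and 0.06 (SE 0.10) at 1452211_at. The last measured 246.5, 277.9 and 276.6 in heterozygous and 262.3, 258.0 and 242.9 in wild-type brains, so the 3 probe sets of Psme4 did not share a direction.

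Psme1, an interferon-inducible activator subunit, measured 496.3, 593.5 and 454.7 in heterozygous and 444.7, 536.5 and 467.9 in wild-type brains at 1417056_at (0.08, SE 0.11), and the genotypes overlapped. The probe set shared by Psme2 and Psme2b measured 254.7, 297.7 and 287.5 in heterozygous and 269.0, 314.5 and 257.4 in wild-type brains. The inhibitor gene Psmf1 lay at 0.07 (SE 0.11) by its brightest probe set.

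**Figure D5:**
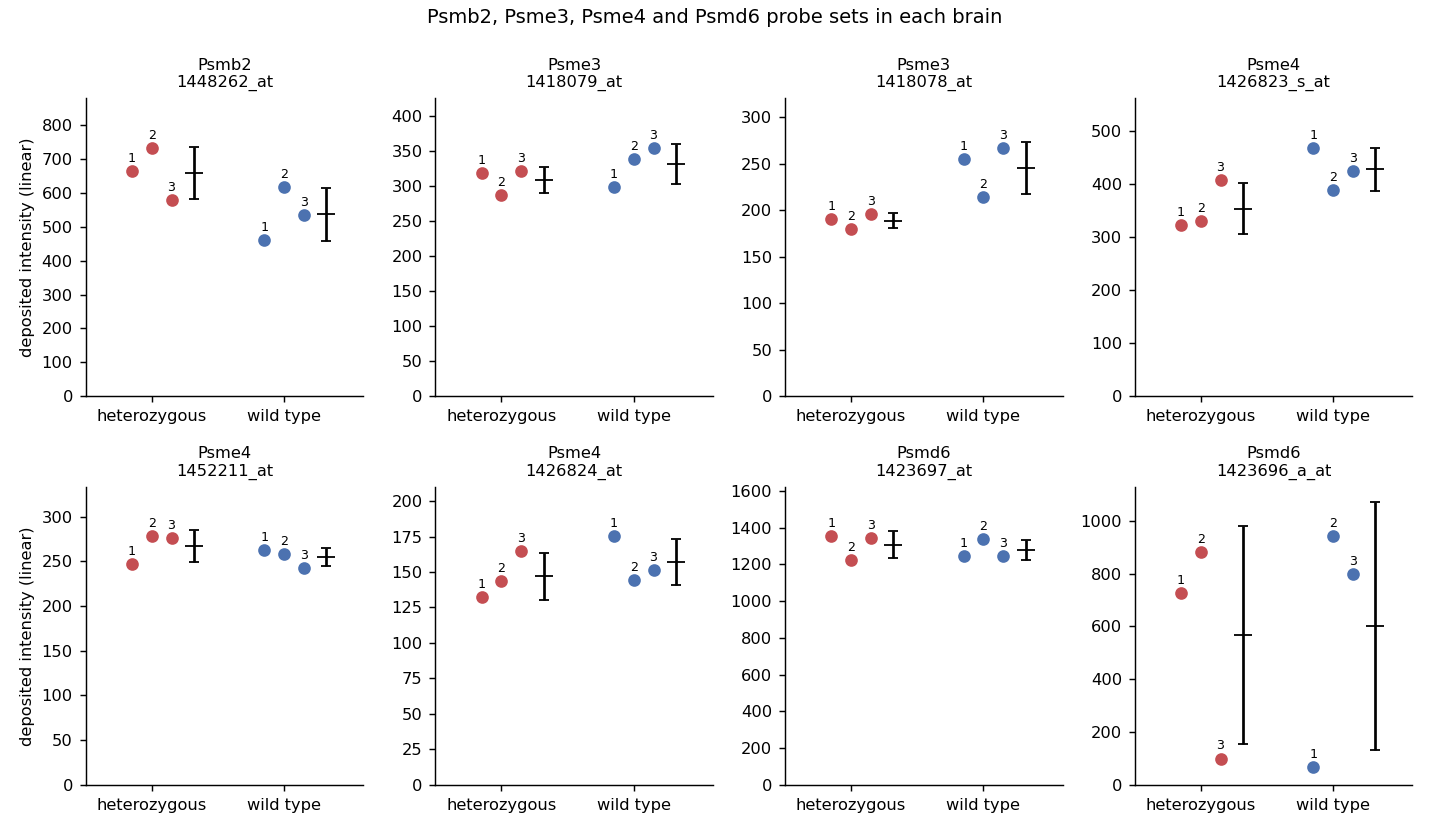
Deposited intensity (linear axis from 0) in each brain at every tested probe set of Psmb2, Psme3, Psme4 and Psmd6, with the mean and SD beside the points and heterozygous brains left of wild-type brains. At Psme3 1418078_at the heterozygous brains (179.7 to 195.8) lie below the wild-type brains (214.1 to 267.1), whereas at Psmb2 and Psme4 the genotypes overlap, and at Psmd6 1423696_a_at heterozygous 3 and wild type 1 lie apart from the other brains.

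The 7 assembly chaperone genes, whose products help to build the rings and the 19S base, had a median of 0.04, 4 higher in sign and 3 lower. Psmg4, which helps to assemble the alpha ring, was highest, with 155.7, 129.3 and 100.7 in heterozygous and 111.1, 132.7 and 108.7 in wild-type brains at 1435431_at (log2 difference 0.10, SE 0.16). Psmd9, a chaperone of the 19S base, was lowest by its brightest probe set 1423386_at (-0.07, SE 0.13). At 1423387_at Psmd9 measured 59.1, 60.3 and 55.5 in heterozygous and 43.0, 53.8 and 43.3 in wild-type brains, without overlap and on the higher side (0.25, SE 0.15, exact permutation p = 0.1). Neither Psmd9 value passed the test (limma adjusted p = 0.975 and 0.956).

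Genes that work with the proteasome but do not carry its symbols were read beside it. Of 27 listed cofactors, shuttles, ubiquitin genes and regulators, 18 had a probe set of 1 gene, and all 18 were tested with 43 probe sets. None was called, and 6 were higher and 12 lower in sign (median -0.05), against 52.0% higher among all genes tested. Each at its brightest probe set, the 18 genes summed to 16636 to 16962 in heterozygous and 17063 to 17683 in wild-type brains, without overlap. Bright genes weigh most in such a sum, and its difference was not tested. An unadjusted limma p below 0.05 was found for 1 of the 43 (2.33%), against 4.83% of the table. The gene was Txnl1, which encodes a thioredoxin-like protein bound to the 19S particle. At 1435235_at it measured 306.2, 294.6 and 252.1 in heterozygous brains, against 349.7, 343.8 and 387.1 in wild-type brains. The means were 284.3 ± 28.5 in heterozygous and 360.2 ± 23.5 in wild-type brains (SD, n = 3 each), without overlap (-0.33, SE 0.10, limma p = 0.00948, adjusted p = 0.956, exact permutation p = 0.1). The other tested Txnl1 probe sets lay at -0.12 (SE 0.14), -0.01 (SE 0.09) and, at the weak 1437906_x_at, 0.57 (SE 0.26). Nploc4, a cofactor of the segregase Vcp, was highest at 0.11 (SE 0.15), and Rad23b, a shuttle for ubiquitinated proteins, lowest at -0.19 (SE 0.13). The transcription factor genes Nfe2l1 and Nfe2l2 lay at 0.03 (SE 0.13) and -0.10 (SE 0.11).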

How the data were processed

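RNA from whole brains of 3 heterozygous and 3 wild-type mice was hybridised to 6 arrays, 1 brain each. The authors deposited linear intensities, 1 for each probe set on each array; how the probes were summarised and any genome build are not given in the sources used here. Genes came from the platform annotation, with symbols updated to a RefSeq table of assembly GRCm38.p6 (34741 of 34945 probe sets of 1 gene matched). From the deposited intensities, log2(value + 16) was computed with no further normalization (array medians of 5.56 to 5.66), and probe sets at or below the 40th percentile of the mean were dropped as dim (18015 of 45037). Genotypes were compared with limma 3.58.1 (R 4.3.3; lmFit, eBayes with intensity trend, two-sided, Benjamini-Hochberg over 27022 probe sets, threshold 0.05) and with two-sided exact permutation tests. The steps were tested on simulated data. The number of arrays limits the precision.

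Genes named were every Psmb1 probe set, those with an unadjusted p below 0.05, the highest and lowest gene of each role, the interferon-inducible subunits, genes whose probe sets lay over 0.3 apart, and the extremes of the cofactor list. Psmb4, Psmc6, Psmd6 and Psme3ip1 fall outside these rules and were described after their values were seen. Members, lists and tests were chosen with earlier results of these data known. Alternatives were other pseudocounts, scalings, filters and limma settings, array weights, a replicate block, probe sets without the suffixes _x_at and _s_at, and leaving out each array. Replicate numbers are not stated to pair mice, and deviations of same-numbered arrays correlated at 0.082, 0.20 and -0.018, so the groups were not paired.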

Additional observations from a re-analysis of the deposited data

How the results depend on the processing

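No proteasome probe set was called under any alternative that was run. Of 536 values of 34 named probe sets under alternatives, 510 kept their sign, 26 changed it, and none was called. Weak named probe sets have no value with the dim filter at the 60th percentile. Other filters, other eBayes settings and the replicate block cannot change a log2 difference. Agreement in sign under those alternatives was therefore fixed in advance. Psmb1 1420052_x_at lay between -1.10 and -0.75 with single arrays left out, with limma adjusted p from 0.303 to 0.999 over the alternatives. Over the whole table, 1 probe set was called without the trend and 1 without the dim filter, against 4 as reported, and 1 to 14 with single arrays left out (14 without heterozygous 1). The count of proteasome probe sets with an unadjusted p below 0.05 was 2 to 5 with single arrays left out. The median of the 19S genes was -0.0025 under median centring and ranged from -0.0060 to 0.057 when 1 array was left out. That of the activators was 0.067 without probe sets of the suffixes _x_at and _s_at, and -0.085 to 0.011 with single arrays left out; the core ranged from -0.015 to 0.080 and the assembly chaperones from -0.016 to 0.075. Small differences changed sign: Psmd2 was -0.021 with array weights and -0.030 with median centring, Psmd4 1425859_a_at 0.0057 with quantile normalization, and Psmd7 1451056_at -0.0059 with median centring. With single arrays left out, the log2 differences spanned -0.221 to 0.0832 (Psma2), -0.0153 to 0.103 (Psma3 1448442_a_at), -0.0574 to 0.194 (Psma5), -0.0376 to 0.165 (Psma6 1416506_at), -0.0212 to 0.172 (Psma6 1437144_x_at), -0.151 to 0.0507 (Psmb10), -0.0194 to 0.109 (Psmc3), -0.0857 to 0.116 (Psmd2), -0.0218 to 0.0080 (Psmd4 1425859_a_at), -0.0197 to 0.105 (Psmd7 1451056_at), -0.203 to 0.0461 (Psmd9 1423386_at), -0.019 to 0.167 (Psme1) and -0.0306 to 0.248 (Psmg4). The cause of these changes was not tested.

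The arrays share only replicate numbers. With a replicate block, 5 probe sets of the table and 0 of the proteasome were called, 5 proteasome probe sets had an unadjusted p below 0.05, and Psmb1 1420052_x_at had a limma adjusted p of 0.303; the exact sign-flip p of its difference from 1448166_a_at was 0.25, the smallest that 3 pairs can give. Dim signals limit the weak probe sets most, since the pseudocount of 16 sets much of their size.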

Other observations

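The split seen at Psmd6 1423696_a_at was looked for in the whole table. Of the tested probe sets, 4 had heterozygous 3 and wild type 1 as the lowest arrays with a gap of at least 1 on the log2 scale to the other 4 arrays. Psmd6 had the widest gap, 2.68. Cthrc1, a secreted collagen-triple-helix protein gene on chromosome 15, measured 111.4, 254.4 and 24.8 in heterozygous and 32.8, 145.6 and 130.3 in wild-type brains at 1452968_at (gap 1.39). Ptprg, a receptor tyrosine phosphatase gene, measured 119.97, 210.6 and 37.0 in heterozygous and 17.6, 197.7 and 168.4 in wild-type brains at 1429691_at (gap 1.36). Ptprg lies on chromosome 14, 10 places from Psmd6 in the order of protein-coding genes. The fourth, 1415848_at, is not named here (gap 1.19). Summed pituitary markers were highest on the same 2 arrays, at 195.3, 144.5 and 6556 in heterozygous and 20253, 834.6 and 741.9 in wild-type brains. Their part in the split was not tested.

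Psme3ip1, which encodes a partner of the activator Psme3 and is no subunit, measured 479.3, 471.9 and 496.1 in heterozygous brains, against 433.1, 421.5 and 446.1 in wild-type brains at 1417243_at. The groups did not overlap, on the side opposite to Psme3 1418078_at (log2 difference 0.15, SE 0.08, limma adjusted p = 0.956, exact permutation p = 0.1). Psme3ip1 was singled out after its values were seen.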
